A study of Mus musculus with 20 samples.

Results

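The genes described here are 37 genes of the integrated stress response (ISR) and the unfolded protein response (UPR), taken by name from a table of RNA-seq counts for 55414 Ensembl gene identifiers. All 37 matched an identifier, and all 37 were among the 15624 genes with enough reads to be tested. They were sorted by role into 6 transcription factors of the ISR, 11 effectors known as targets of the transcription factor ATF4, 4 sensors and transducers of the UPR, 13 chaperones and folding enzymes of the endoplasmic reticulum (ER), and 3 genes of ER-associated degradation. The RNA came from primary mouse cardiac fibroblasts at passage 2, the cells that lay down most of the collagen matrix in the heart. The fibroblasts carried a loxP-flanked Hyal2 gene, which encodes a hyaluronidase, per the treatment protocol, while the genotype label of every library reads Wild Type C57BL/6J. All cultures were serum starved for 24 h, given an adenovirus for 5 h and collected after a further 48 h. The 5 groups of 4 libraries were Cre_TGFB (Cre virus, which deletes the floxed part of Hyal2, then TGFB), GFP_TGFB (GFP control virus, then TGFB), Cre (Cre virus without TGFB), Hyal2 (a virus that overexpresses Hyal2, without TGFB) and GFP (control virus without TGFB). The protocol gives 20 ng/mL for bFGF and TGFB in wording that leaves unclear whether the cultures without TGFB received bFGF in that step. Libraries with the same replicate number carried the same code in all 5 groups and are treated as 1 cell isolate. Isolates 1 and 2 were labelled female, and isolates 3 and 4 male.

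In the ISR, 4 kinases that sense different stresses phosphorylate the translation factor eIF2, which lowers general protein synthesis while the mRNA of ATF4 is translated more. ATF4 then drives genes for amino acid supply, redox balance and feedback on eIF2. The UPR is the ER's own stress response: the sensors IRE1, PERK and ATF6 detect unfolded proteins, and ATF6 and XBP1 drive genes for chaperones and for the disposal of misfolded proteins. PERK belongs to both responses, as it is itself an eIF2 kinase. Fibroblasts that secrete much collagen rely on the ER folding machinery, and TGFB is the classical inducer of their myofibroblast state. The counts measure mRNA, so phosphorylation of eIF2, translation of ATF4, cleavage of ATF6 and splicing of Xbp1 were not measured.

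Library totals ranged from 38.6 to 104.8 M counts. Hyal2 mRNA averaged 7.42 ± 1.56 CPM (counts per library total scaled with TMM factors; SD, n = 4 here and below) in Cre_TGFB and 36.8 ± 3.90 CPM in GFP_TGFB libraries, 10.4 ± 2.90 CPM in Cre and 934 ± 466 CPM in Hyal2 libraries, and 41.2 ± 3.46 CPM in GFP libraries. The 10 fibroblast markers summed to 37400 to 46500 CPM in libraries with TGFB, against 42800 to 69900 CPM in libraries without it. Among these 10, Col1a1 (log2 fold change 0.81) and Col1a2 (0.27) were higher in GFP_TGFB than in GFP libraries, Pdgfra (-2.73), Tcf21 (-2.29), Dcn (-2.06), Col3a1 (-1.89), Thy1 (-1.84), Lum (-1.77) and Vim (-0.24) were lower, and Pdgfrb did not pass (-0.09). Markers of other cell types were also detected. The 6 leukocyte markers summed to 25.7 to 62.3 CPM with TGFB, against 50.3 to 128 CPM without it, and none was at 0. The 4 pericyte and smooth muscle markers summed to 58.6 to 71.7 CPM with TGFB, against 4.30 to 7.78 CPM without it. Most of the sum with TGFB was Cspg4, which had 64.7 ± 6.48 CPM in GFP_TGFB and 2.55 ± 0.356 CPM in GFP libraries. Cspg4 (log2 fold change 4.65) and Myh11 (1.605) were higher in GFP_TGFB than in GFP libraries, while Rgs5 (-1.06) and Kcnj8 (-2.53) were lower. Rgs5 reached at most 3.47 CPM and Kcnj8 at most 0.533 CPM in any library. The 5 endothelial markers summed to at most 16.5 CPM and the 6 cardiomyocyte markers to at most 3.67 CPM, with Myh6 and Nppa at 0 in all but 1 library each. These marker levels moved with TGFB, and their part in the results below was not tested. In bulk RNA, fewer cells of a type and less RNA per cell cannot be told apart.

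ATF4 targets and ER chaperones are known to be reached through different promoter elements, and a few promoters that carry them are shown because the results below compare these roles. The C/EBP-ATF response element (CARE), to which ATF4 dimers bind, was searched as TGATGNAA, and the ER stress element (ERSE), to which ATF6 binds together with NF-Y, as CCAAT and CCACG with any 9 bases between them. A second form, ERSE-II, was searched as ATTGG and CCACG with any 1 base between them. Both strands of the 250 bases before the start of each gene were read in the RefSeq promoter table of build GRCm38.p6, which held a window for 33 of the 37 genes. Slc7a5, Manf, Hyou1 and Atf6 had none. CARE was found in 4 of 10 ATF4 target effectors (Asns, Chac1, Fgf21 and Slc7a11), 2 of 6 ISR transcription factors (Atf3 and Nupr1), 0 of 11 chaperone and folding genes and 1 of 3 degradation genes (Herpud1), and in 3.45% of all 32851 windows of this table. ERSE was found in 7 of 11 chaperone and folding genes (Calr, Canx, Creld2, Dnajc3, Hsp90b1, Hspa5 and Pdia6), in 1 of 3 degradation genes (Syvn1) and in 0 of 10 effectors, and in 0.113% of all windows. ERSE-II was found in Herpud1, and in 0.0304% of all windows. ERSE and ERSE-II share the letters CCACG. A match is a run of letters, not a measured binding site. The stretches below run 5′ to 3′ on the strand of the gene, and capitals mark the match. TTGCATCA and the match in Calr are read from the opposite strand.
Fgf21, CARE, chr7:45615582-45615669, strand -: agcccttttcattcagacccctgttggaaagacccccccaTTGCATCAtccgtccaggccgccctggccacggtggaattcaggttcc
Chac1, CARE, chr2:119351009-119351096, strand +: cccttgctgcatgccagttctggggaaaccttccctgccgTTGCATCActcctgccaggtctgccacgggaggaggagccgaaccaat
Asns, CARE, chr6:7693210-7693272, strand -: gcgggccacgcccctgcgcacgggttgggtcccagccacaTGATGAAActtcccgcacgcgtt
Nupr1, CARE, chr7:126625533-126625620, strand -: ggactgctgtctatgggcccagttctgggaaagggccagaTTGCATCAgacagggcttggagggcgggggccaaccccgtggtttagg
Atf3, CARE, chr1:191183396-191183483, strand -: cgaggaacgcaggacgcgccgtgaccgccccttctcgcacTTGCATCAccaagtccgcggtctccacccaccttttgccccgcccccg
Herpud1, CARE, chr8:94386277-94386364, strand +: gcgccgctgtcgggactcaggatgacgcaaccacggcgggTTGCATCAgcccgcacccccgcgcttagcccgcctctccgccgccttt
Herpud1, ERSE-II, chr8:94386337-94386427, strand +: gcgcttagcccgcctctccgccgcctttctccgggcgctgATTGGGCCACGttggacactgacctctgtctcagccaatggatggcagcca
Hspa5, ERSE, chr2:34771985-34772083, strand +: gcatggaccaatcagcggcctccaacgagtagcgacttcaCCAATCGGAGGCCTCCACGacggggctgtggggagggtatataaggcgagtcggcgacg
Calr, ERSE, chr8:84847035-84847133, strand -: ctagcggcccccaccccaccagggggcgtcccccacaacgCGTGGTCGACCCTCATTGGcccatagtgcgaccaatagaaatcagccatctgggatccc
Pdia6, ERSE, chr12:17266451-17266549, strand +: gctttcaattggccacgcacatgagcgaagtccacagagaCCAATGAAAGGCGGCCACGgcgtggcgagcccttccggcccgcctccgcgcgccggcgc
Dnajc3, ERSE, chr14:118937787-118937885, strand +: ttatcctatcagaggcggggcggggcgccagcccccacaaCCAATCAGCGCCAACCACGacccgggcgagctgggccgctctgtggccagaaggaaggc

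In GFP_TGFB against GFP libraries, 15 of the 17 ISR transcription factors and ATF4 target effectors rose, Ddit4 fell and Atf5 did not pass, while 2 of the 13 chaperone and folding genes rose, 4 fell and 7 did not pass. In all, 26 of the 37 genes (70.3%) passed an adjusted p of 0.05, against 61.9% of all genes tested. Of these, 21 were higher and 5 lower, against 29.8% of all genes higher and 32.1% lower. At least a 2-fold increase was called for 9 of the 37 genes, against 6.45% of all genes, and a decrease of that size for 0, against 12.8% of all genes. All 9 belonged to the ATF4 arm, as 7 effectors and 2 transcription factors. The effectors had a median log2 fold change of 1.40 with 10 of 11 higher and 1 lower, and the chaperones one of -0.02 with 2 of 13 higher and 4 lower, beside a median of -0.02 over all genes. The libraries of the 2 groups did not overlap for 19 of the 37 genes, 16 higher and 3 lower, against 50.2% of all genes. Tests are edgeR quasi-likelihood tests with isolates as blocks, errors of log2 fold changes are SE, and p is adjusted over all genes tested by the Benjamini-Hochberg method. The labels do not say whether each isolate is a separate animal. Here p measures the spread left between libraries after group and isolate differences are removed, pooled over all 5 groups.

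**Figure D1:**
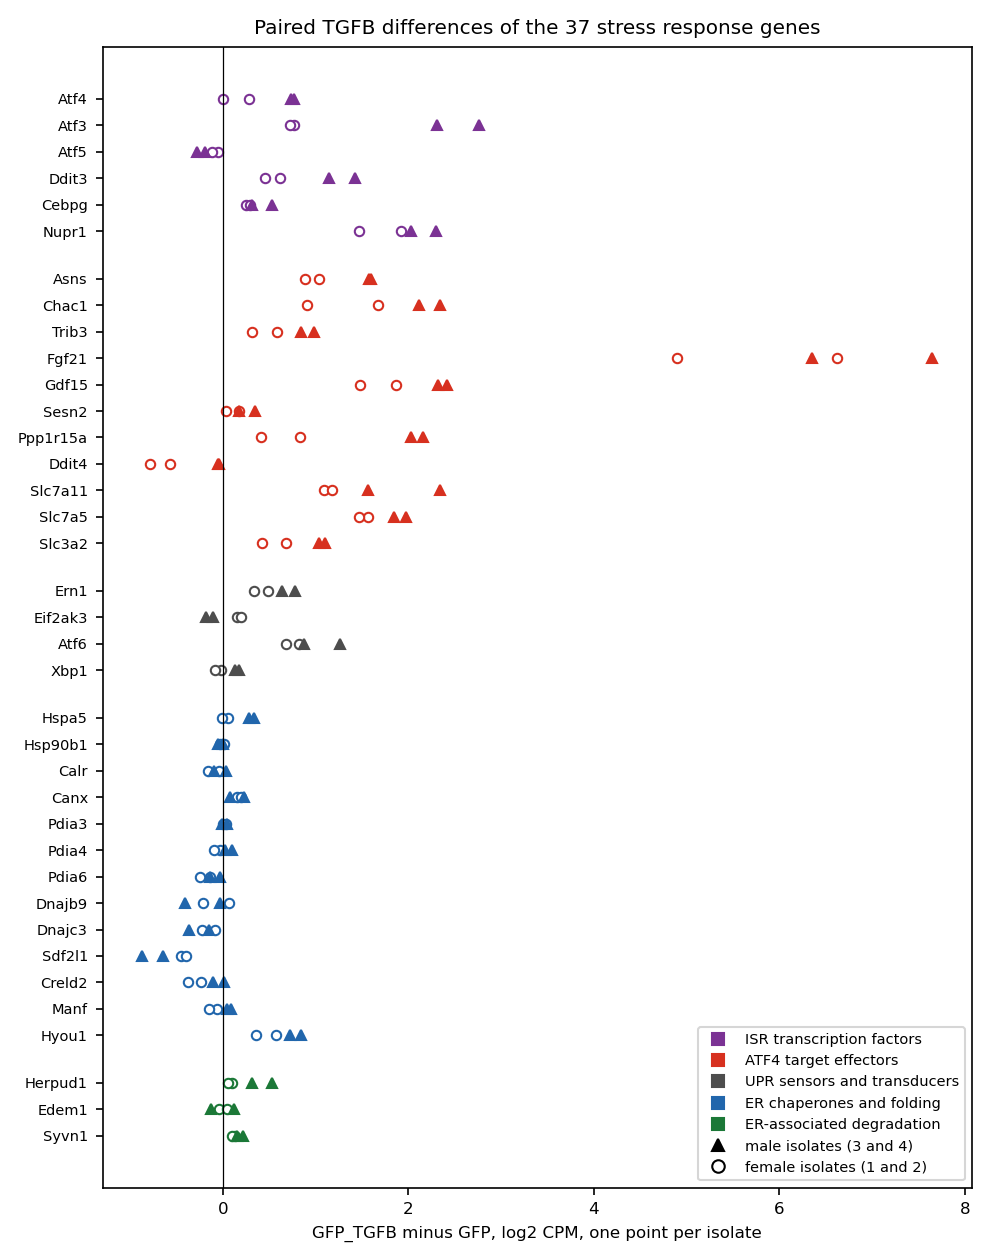
Difference between the GFP_TGFB and the GFP library of each isolate (log2 CPM, horizontal axis) for the 37 genes (vertical axis), coloured by role, with filled triangles for male and open circles for female isolates. Nearly all ATF4 target effectors lie right of 0, with Fgf21 at 4.9 to 7.65, while the chaperones cluster around 0 apart from Hyou1 and Sdf2l1.

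Of the 6 transcription factors 5 rose and 0 fell. Atf4 had 407, 355, 537 and 508 CPM in the GFP_TGFB libraries, against 336, 354, 314 and 303 CPM in the GFP libraries. The GFP_TGFB libraries were all higher, by a narrow margin in isolate 2, and the log2 fold change was 0.46 ± 0.10 (adjusted p = 0.00103). Ddit3, which encodes the pro-apoptotic factor CHOP, had 64.2, 54.4, 129 and 102 CPM in the GFP_TGFB libraries, against 41.8, 39.4, 48 and 46.4 CPM in the GFP libraries. All 4 GFP_TGFB libraries lay above all GFP libraries, with a log2 fold change of 0.93 ± 0.13 (adjusted p = 9.18e-06). Reads of Ddit3 may include reads of its antisense neighbour Mars, which was more abundant and also rose with TGFB, since the strand setting of the counting is not given in the sources used here. Atf3, a stress-induced repressor and activator of the same bZIP family, had 7.7, 8.51, 22.4 and 19.2 CPM in the GFP_TGFB libraries, against 4.51, 5.12, 3.29 and 3.84 CPM in the GFP libraries. The groups did not overlap, but the male isolates had the larger difference, and the log2 fold change was 1.67 ± 0.35 (adjusted p = 0.000657).

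Nupr1, a small stress-induced chromatin protein, had 368, 274, 442 and 353 CPM in the GFP_TGFB libraries, against 97.3, 98.5, 89.5 and 86.3 CPM in the GFP libraries. No GFP_TGFB library came near the GFP range, and the log2 fold change was 1.94 ± 0.11 (adjusted p = 4.35e-11). Cebpg, the dimer partner of ATF4, rose by 0.34 ± 0.09 (adjusted p = 0.00213) on the log2 scale although the libraries of the groups overlapped. Atf5, a paralogue of Atf4 whose translation is also controlled by eIF2, was the only transcription factor of the 6 that did not pass, at -0.16 ± 0.10 (adjusted p = 0.165).

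The secreted stress signals were the effectors with the largest log2 fold changes. Fgf21, a metabolic hormone best known from the liver, had 14.5, 11.4, 34.5 and 29.8 CPM in the GFP_TGFB libraries, against 0.111, 0.348, 0.135 and 0.328 CPM in the GFP libraries. In the GFP libraries this rested on 5 to 26 reads, against 534 to 1351 reads in the GFP_TGFB libraries, and the groups were far apart. The fold change was 82.8, or 6.37 ± 0.32 (adjusted p = 3.98e-11) on the log2 scale, and with so few control reads its size is less certain than its direction. Gdf15, a stress cytokine of the TGFB superfamily, had 33.9, 27.4, 52.3 and 44.7 CPM in the GFP_TGFB libraries, against 9.22, 9.75, 9.73 and 8.92 CPM in the GFP libraries. The groups did not overlap, and the log2 fold change was 2.04 ± 0.17 (adjusted p = 1.82e-08).

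All 4 genes of amino acid supply rose. Asns, which makes asparagine, had 254, 239.8, 358 and 345 CPM in the GFP_TGFB libraries, against 124, 129, 118 and 116 CPM in the GFP libraries. All GFP_TGFB libraries were higher, and the log2 fold change was 1.28 ± 0.12 (adjusted p = 3.79e-08). Slc7a5, the light chain of the large neutral amino acid transporter, had 206, 171, 335 and 296 CPM in the GFP_TGFB libraries, against 69.3, 62, 85 and 81.9 CPM in the GFP libraries. The lowest GFP_TGFB library was well above the highest GFP library, and the log2 fold change of 1.72 ± 0.08 (adjusted p = 1.84e-12) had the smallest adjusted p of the 37 genes. Its heavy chain Slc3a2 rose by 0.82 ± 0.10 (adjusted p = 6.44e-07). Slc7a11, the cystine importer that pairs with the same heavy chain, had 15, 19, 37.6 and 32.8 CPM in the GFP_TGFB libraries, against 7.02, 8.39, 7.39 and 11 CPM in the GFP libraries. The libraries did not overlap, and the log2 fold change was 1.55 ± 0.25 (adjusted p = 5.76e-05).

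The other effectors act on glutathione, on eIF2 and on growth signalling. Chac1, which breaks down glutathione, had 58, 42.2, 86 and 72.4 CPM in the GFP_TGFB libraries, against 18.2, 22.4, 17 and 16.8 CPM in the GFP libraries. The groups did not overlap, and the log2 fold change was 1.76 ± 0.19 (adjusted p = 5.51e-07). Ppp1r15a, the phosphatase subunit that removes the phosphate from eIF2, had 102, 94.9, 217 and 198 CPM in the GFP_TGFB libraries, against 57.6, 71.6, 48.7 and 48.4 CPM in the GFP libraries. All GFP_TGFB libraries were higher and the male ones most of all, with a log2 fold change of 1.40 ± 0.27 (adjusted p = 0.000291). Trib3, a pseudokinase that feeds back on ATF4, rose by 0.69 ± 0.09 (adjusted p = 2.6e-06). Sesn2 and Ddit4 both restrain the growth kinase mTORC1 and went opposite ways. Sesn2 was higher by 0.19 ± 0.06 (adjusted p = 0.0101), a call lost when the GFP library of replicate 4 was left out (0.13, adjusted p = 0.0545). Leaving out isolate 1 or 4 from all groups also ended the Sesn2 call (adjusted p = 0.066 and 0.0891). Ddit4 was lower by a log2 fold change of -0.35 ± 0.11 (adjusted p = 0.0118), and leaving out GFP_TGFB replicate 1, GFP_TGFB replicate 2 or GFP replicate 2 ended that call (adjusted p between 0.0522 and 0.0608). So did leaving out isolate 1 or 2 from all groups (adjusted p = 0.107 and 0.0831).

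**Figure D2:**
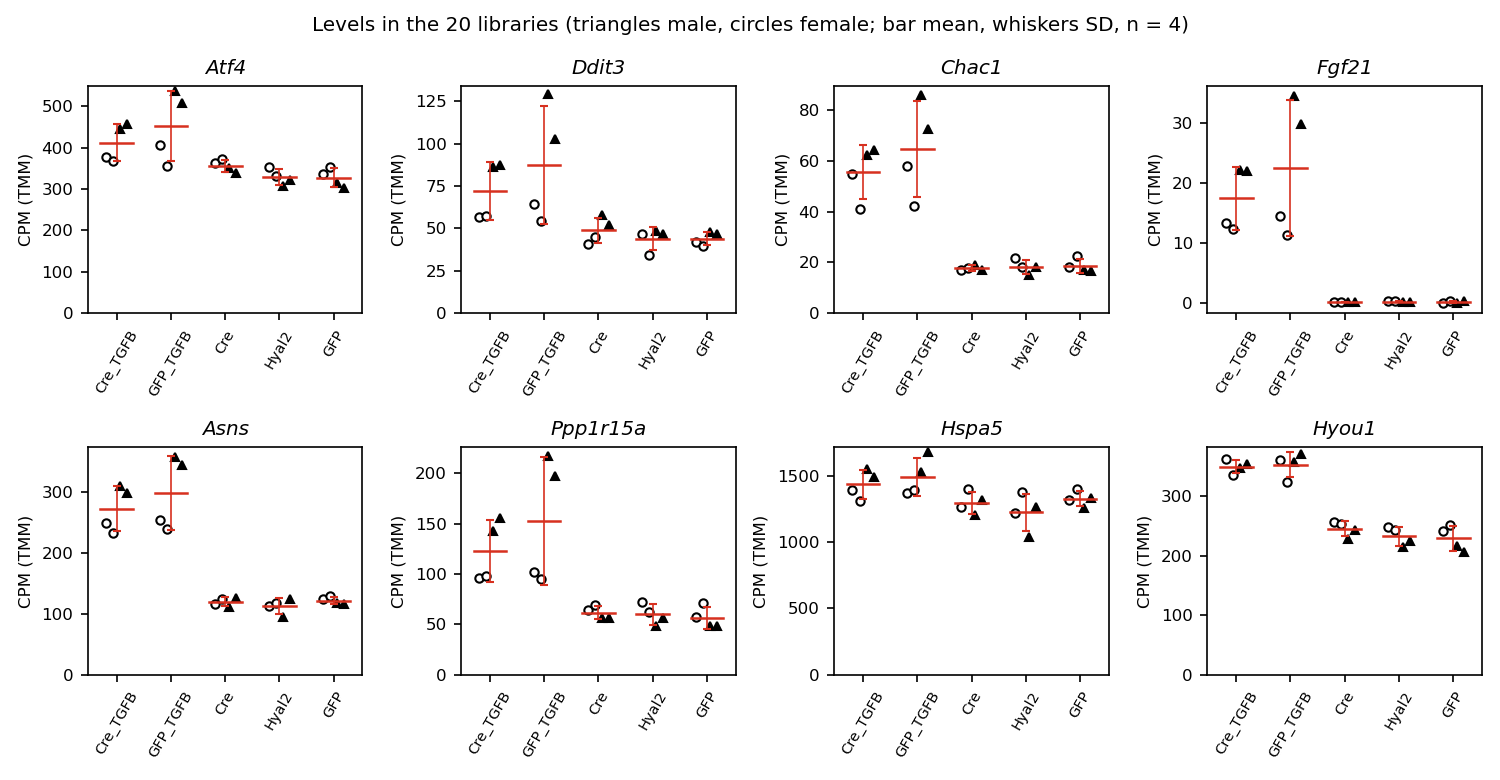
Levels of 8 genes in the 20 libraries (CPM, vertical axis, from 0) by group (horizontal axis), with the mean as a bar and the SD as whiskers (n = 4), triangles for male and circles for female isolates. Ddit3, Chac1, Fgf21, Asns, Ppp1r15a and Hyou1 passed as higher in both TGFB groups and Atf4 in GFP_TGFB but not in Cre_TGFB, with the male libraries highest within each TGFB group for the 6 genes of the ATF4 arm, while the Hspa5 ranges overlap.

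Of the UPR sensors, 2 of 4 rose. Atf6, the membrane-bound sensor and transcription factor, had 97, 95.7, 135 and 114 CPM in the GFP_TGFB libraries, against 55.1, 59.8, 56.5 and 62.1 CPM in the GFP libraries. The groups did not overlap and the log2 fold change was 0.91 ± 0.10 (adjusted p = 5.16e-07). Ern1, which encodes the sensor IRE1, had 61.4, 59.4, 76.9 and 66.7 CPM in the GFP_TGFB libraries, against 43.7, 47, 44.9 and 42.7 CPM in the GFP libraries. It also showed no overlap, with a log2 fold change of 0.56 ± 0.07 (adjusted p = 2.03e-06). Eif2ak3, which encodes PERK, had 60.8, 59.6, 48.4 and 50.7 CPM in the GFP_TGFB libraries, against 54.9, 51.7, 54.7 and 54.6 CPM in the GFP libraries. With TGFB the male isolates were lower and the female isolates higher, and the log2 fold change of 0.02 ± 0.07 (adjusted p = 0.793) did not pass. Xbp1, which IRE1 splices, had 155, 147, 152 and 167 CPM in the GFP_TGFB libraries, against 157, 155, 134 and 152 CPM in the GFP libraries. These ranges overlapped, and the log2 fold change was 0.05 ± 0.06 (adjusted p = 0.409).

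Of the 13 chaperones and folding enzymes, 7 did not pass and 6 passed in opposite directions. Hspa5, which encodes the master chaperone BiP, had 1368, 1391, 1530.0 and 1681 CPM in the GFP_TGFB libraries, against 1317, 1397, 1259 and 1331 CPM in the GFP libraries. The ranges overlapped, and the log2 fold change was 0.17 ± 0.08 (adjusted p = 0.0688). Hyou1, the nucleotide exchange factor of BiP, had 359.9, 323, 358 and 370.2 CPM in the GFP_TGFB libraries, against 242, 251, 216 and 206 CPM in the GFP libraries. It was the only one of the 13 whose GFP_TGFB libraries all lay above the GFP libraries, with a log2 fold change of 0.63 ± 0.06 (adjusted p = 8.43e-08). Canx, the lectin chaperone calnexin, was higher by 0.17 ± 0.06 (adjusted p = 0.029), but the libraries overlapped. The Canx call was lost without any 1 of GFP_TGFB replicates 2, 3 and 4 and GFP replicates 1, 2 and 3 (adjusted p between 0.0538 and 0.103). Sdf2l1, a partner of the BiP cochaperones, had 19.4, 18.4, 13.8 and 16.1 CPM in the GFP_TGFB libraries, against 26.5, 24.3, 25.2 and 25 CPM in the GFP libraries. Its groups did not overlap, and it had the largest fall of the 37 genes, by a log2 fold change of -0.58 ± 0.08 (adjusted p = 3.12e-06). Dnajc3, a cochaperone of BiP, fell by 0.21 ± 0.06 (adjusted p = 0.00465), Creld2, an ER-stress-induced protein, by 0.17 ± 0.06 (adjusted p = 0.0233) and the disulfide isomerase Pdia6 by 0.14 ± 0.05 (adjusted p = 0.0134) on the log2 scale. The Creld2 call was lost without replicate 1 or 2 of either group (adjusted p between 0.0576 and 0.121), and the Pdia6 call without replicate 2 of either group (adjusted p between 0.0529 and 0.0543). With a whole isolate left out, the Dnajc3 call was lost without isolate 4 (adjusted p = 0.0727). The Pdia6 call was lost without isolate 1 or 3 (adjusted p = 0.106 and 0.069). The remaining 6 genes were the chaperone Hsp90b1, the calnexin paralogue Calr, the disulfide isomerases Pdia3 and Pdia4, the BiP cochaperone Dnajb9 and the ER-resident factor Manf, with log2 fold changes from -0.15 for Dnajb9 to 0.02 for Pdia3.

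In ER-associated degradation, changes were small. Herpud1, a scaffold of the ubiquitin ligase complex with both CARE and ERSE-II in its promoter window, was higher by 0.26 ± 0.07 (adjusted p = 0.00382) on the log2 scale with overlapping libraries. The Herpud1 call was lost without isolate 3 (adjusted p = 0.0579). Syvn1, the ubiquitin ligase itself, was higher by 0.15 ± 0.05 (adjusted p = 0.0135) without overlap, and without GFP replicate 4 this call was lost (adjusted p = 0.0527). The Syvn1 call was also lost without isolate 1, 3 or 4 (adjusted p between 0.0542 and 0.0722). Edem1, which marks glycoproteins for removal, had 153 ± 5.94 CPM in GFP_TGFB and 153 ± 12.9 CPM in GFP libraries and did not pass (0.00 ± 0.06 (adjusted p = 0.98)). Without the isolate block, 0 of these 3 genes passed.

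The promoter matches and the counts were then set side by side. Of the 7 genes with CARE, all 7 were called higher in GFP_TGFB libraries, by log2 fold changes from 0.26 for Herpud1 to 6.37 for Fgf21, against 29.8% of all genes higher. But 4 of them were effectors and 2 ISR transcription factors, roles in which 10 of 11 and 5 of 6 genes were higher. The match and the role can therefore not be told apart here. Of the 8 genes with ERSE, 2 were called higher (Canx and Syvn1) and 3 lower (Creld2, Dnajc3 and Pdia6), with log2 fold changes from -0.21 for Dnajc3 to 0.17 for Hspa5. These 5 of 8 are close to the 61.9% of all genes that passed. Effectors without a CARE match in the window, such as Gdf15, Ppp1r15a and Trib3, rose as well, and no match says only that these letters were not in these 250 bases.

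The contrast between ATF4 targets and ER chaperones was summarised within each isolate as the mean log2 CPM difference over the 11 effectors minus that over the 13 chaperones. In GFP_TGFB against GFP it was 1.45, 1.10, 2.06 and 1.82 in isolates 1 to 4, with a mean of 1.61 ± 0.42 (SD, n = 4). In Cre_TGFB against Cre it was 1.23, 1.21, 1.56 and 1.61, with a mean of 1.40 ± 0.21. All 8 values were above 0, and the male isolates had the larger values in both. Fgf21 carried part of it: without Fgf21 the means were 1.13 ± 0.37 in GFP_TGFB against GFP and 0.95 ± 0.18 in Cre_TGFB against Cre. With the median over genes in place of the mean they were 0.75 ± 0.16 and 0.53 ± 0.16. Over the chaperones alone the mean difference was -0.03 ± 0.04 in GFP_TGFB against GFP and -0.03 ± 0.08 in Cre_TGFB against Cre, and over the effectors alone 1.58 ± 0.46 and 1.37 ± 0.27. In the comparisons without a TGFB difference the contrast was -0.16 ± 0.20 for Cre_TGFB against GFP_TGFB, with 1 of 4 isolates above 0, 0.04 ± 0.11 for Cre against GFP and 0.05 ± 0.18 for Hyal2 against GFP. No p is given for it, since the genes were chosen with results known.

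**Figure D3:**
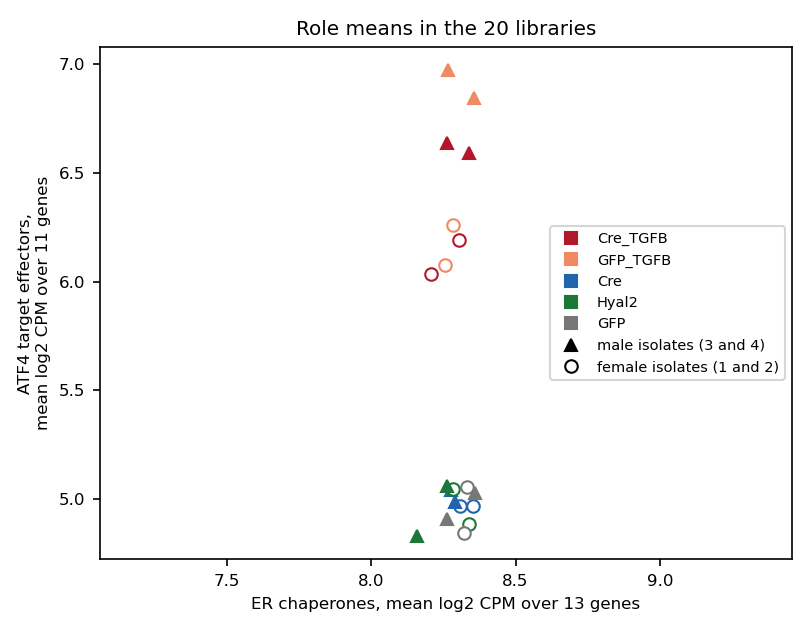
Mean log2 CPM of the 11 ATF4 target effectors (vertical axis) against that of the 13 ER chaperones (horizontal axis) in each of the 20 libraries, coloured by group, with triangles for male and circles for female isolates. The 8 TGFB libraries stand above the 12 others on the vertical axis and overlap with them on the horizontal axis, and among the TGFB libraries the male ones are highest.

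The same comparison in Hyal2-deleted cells, Cre_TGFB against Cre, shares no library with the comparison above, although the 4 isolates are the same. There 24 of the 37 genes passed, 18 higher and 6 lower, against 63.6% of all genes (31% higher and 32.6% lower). Of the effectors, 9 of 11 were higher, with a median of 1.18. Fgf21 had 13.4, 12.4, 22.1 and 22 CPM in the Cre_TGFB libraries, against 0.313, 0.25, 0.169 and 0.267 CPM in the Cre libraries. These were again far apart, with a log2 fold change of 5.92 ± 0.30 (adjusted p = 4.64e-11). Chac1 had 54.9, 41, 62.4 and 64.3 CPM in the Cre_TGFB libraries, against 16.8, 18, 19.1 and 16.9 CPM in the Cre libraries. The groups did not overlap, and the log2 fold change was 1.64 ± 0.18 (adjusted p = 1.09e-06). The other effectors that rose were Slc7a11 (1.96), Slc7a5 (1.48), Gdf15 (1.46), Asns (1.18), Ppp1r15a (0.98), Slc3a2 (0.60) and Trib3 (0.41) on the log2 scale. Ddit4 fell by 0.41, and Sesn2 did not pass at -0.03 ± 0.06 (adjusted p = 0.693).

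Among the transcription factors in Cre_TGFB against Cre, Nupr1 (1.63), Atf3 (1.60), Ddit3 (0.54) and Cebpg (0.36) rose on the log2 scale. Atf5 fell, by a log2 fold change of -0.33 ± 0.10 (adjusted p = 0.00646), a call that did not pass without the block (adjusted p = 0.0591). Atf4 had 378, 368, 444 and 456 CPM in the Cre_TGFB libraries, against 362, 372, 349.8 and 339 CPM in the Cre libraries. The groups overlapped, and the log2 fold change of 0.20 ± 0.10 (adjusted p = 0.0964) did not pass. Atf6 (0.92) and Ern1 (0.48) rose, while Eif2ak3 (0.08) and Xbp1 (0.08) did not pass. Among the chaperones, Hyou1 (0.51) and Canx (0.29) rose, and Sdf2l1 (-0.64), Creld2 (-0.31), Pdia6 (-0.21) and Calr (-0.15) fell. Herpud1 rose by 0.21, and without the block its call and that of Trib3 were lost (adjusted p = 0.14 for Herpud1 and 0.193 for Trib3).

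**Figure D4:**
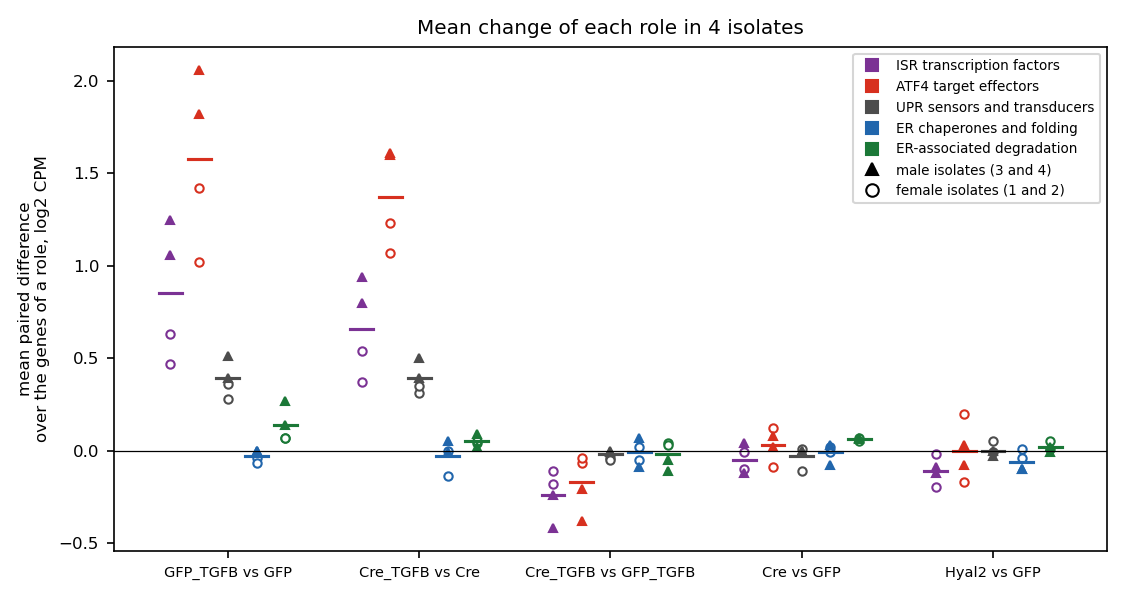
Mean paired log2 CPM difference over the genes of each role (vertical axis) in 5 comparisons (horizontal axis), with 1 point per isolate, triangles for male and circles for female isolates, and a bar at the mean. The ATF4 target effectors stand at 1.58 and 1.37 on average in the 2 TGFB comparisons and the chaperones at -0.03 in both, while in the other comparisons the role means lie between -0.24, for the transcription factors in Cre_TGFB against GFP_TGFB, and 0.06.

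Cre and Hyal2 libraries were also compared with GFP libraries without TGFB. No group received Cre virus in cells without the floxed gene, so effects of Cre itself and of Hyal2 deletion cannot be told apart. In Cre against GFP, edgeR called 0 of 37 genes at the adjusted threshold, against 0.269% of all genes, and 4 had an unadjusted p under 0.05, against 8.71% of all genes. Those 4 were Syvn1, Gdf15, Slc7a11 and Sesn2. Syvn1 had 88.4, 89.5, 80.8 and 86.9 CPM in the Cre libraries, against 79.5, 77, 72.7 and 70.1 CPM in the GFP libraries. All Cre libraries were higher, by a log2 fold change of 0.21 ± 0.05 (adjusted p = 0.0948), and DESeq2 called this 1 gene (0.21, adjusted p = 0.00786). Gdf15 had 13.5, 14.6, 13.6 and 11.4 CPM in the Cre libraries, against 9.22, 9.75, 9.73 and 8.92 CPM in the GFP libraries, and Slc7a11 had 4.41, 5.11, 4.83 and 6.75 CPM in the Cre libraries, against 7.02, 8.39, 7.39 and 11 CPM in the GFP libraries. The libraries of Cre and GFP did not overlap for either gene, Gdf15 above and Slc7a11 below, as for 4 of the 37 genes and 3.68% of all genes. Neither gene passed the adjustment, with log2 fold changes of 0.50 ± 0.17 (adjusted p = 0.405) and -0.67 ± 0.26 (adjusted p = 0.526). Sesn2 differed by 0.14 ± 0.06 (adjusted p = 0.546).

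In Hyal2 against GFP, edgeR and DESeq2 both called 0 of 37 genes, against 0.0064% of all genes by edgeR, which is 1 gene. The unadjusted p was under 0.05 for 2 of the 37 with edgeR, against 4.37% of all genes, and these were Pdia3 (-0.14 ± 0.07 (adjusted p = 0.892)) and Hsp90b1 (-0.15 ± 0.07 (adjusted p = 0.892)). The next smallest p belonged to Syvn1 (0.10) and Atf3 (-0.71). Atf3 had 2.76, 3.03, 2.13 and 2.56 CPM in Hyal2 libraries and 2.86, 3.25, 2.53 and 2.23 CPM in Cre libraries, against 4.51, 5.12, 3.29 and 3.84 CPM in GFP libraries. All 8 libraries with a Hyal2 change were below the 4 GFP libraries, which the Hyal2 and the Cre comparison share, and neither difference passed (adjusted p = 0.892 for Hyal2 and 0.603 for Cre).

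With TGFB, Cre and GFP virus were compared in Cre_TGFB against GFP_TGFB, where Cre itself and Hyal2 deletion again cannot be told apart. edgeR and DESeq2 each called 0 of 37 genes, against 0.0064% of all genes by edgeR, and 3 had an unadjusted p under 0.05 with edgeR, against 3.05% of all genes. All 6 transcription factors and all 11 effectors had a log2 fold change below 0, with a median of -0.19 in each role, while 49.7% of all genes were below 0. Of the 13 chaperones 9 were below 0, with a median of -0.01, and of all 37 genes 31 were. Lists described further below went both ways, with 8 of 10 NRF2 targets and 10 of 12 cytosolic heat shock genes below 0, but 2 of 10 p53 targets. Trib3 had 63.5, 57.4, 99.5 and 110.3 CPM in the Cre_TGFB libraries, against 72, 58.8, 139 and 125 CPM in the GFP_TGFB libraries. These ranges overlapped, although each Cre_TGFB library was below the GFP_TGFB library of its isolate, by -0.23 ± 0.09 (adjusted p = 1). Nupr1 had 309, 272, 342 and 284 CPM in the Cre_TGFB libraries, against 368, 274, 442 and 353 CPM in the GFP_TGFB libraries, with overlap and a log2 fold change of -0.25 ± 0.10 (adjusted p = 1). Slc7a5 (-0.19) and Atf3 (-0.68) were also below 0 in all 4 isolates. Such a sign in all 4 isolates was seen for 6 of the 37 genes, against 6.91% of all genes. The genes of a role are not independent of each other, and no gene of the 37 passed on its own.

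Whether the TGFB effect itself differed between Cre and GFP virus was tested as an interaction, the Cre_TGFB against Cre difference minus the GFP_TGFB against GFP difference. edgeR and DESeq2 each called 0 of 37 genes and 0 of all genes tested, which is 0% of them. With edgeR 6 of the 37 had an unadjusted p under 0.05, against 5.56% of all genes, namely Syvn1 (-0.23 on the log2 scale), Sesn2 (-0.21), Gdf15 (-0.58), Slc7a5 (-0.24), Trib3 (-0.28) and Nupr1 (-0.31), each with an adjusted p of 0.774. For Atf4, which passed in GFP_TGFB against GFP but not in Cre_TGFB against Cre, the interaction was -0.25 ± 0.15 (adjusted p = 0.774), so a difference between these effects was not shown.

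The TGFB effect differed between the male and the female isolates for part of the ATF4 arm. In GFP_TGFB against GFP, the male minus female difference passed for 10 of 37 genes, all higher in the male isolates, against 6.05% of all genes. Ppp1r15a had a mean paired log2 CPM difference of 2.09 in the male and 0.62 in the female isolates, and the difference between these was 1.49 ± 0.15 (SE, adjusted p = 0.000255) in the edgeR fit. Atf3 had 2.54 in the male and 0.75 in the female isolates, a difference of 1.80 ± 0.19 (SE, adjusted p = 0.000255) by edgeR. Atf4 had 0.76 in the male and 0.14 in the female isolates, a difference of 0.62 ± 0.10 (SE, adjusted p = 0.00259) by edgeR. In each of these 3 genes both male isolates were above both female isolates. They were picked by this test, so that order is no separate support. The same order was seen in genes that did not pass, such as Cebpg and Syvn1. The other 7 were Chac1 (0.95), Ddit3 (0.75), Asns (0.63), Ddit4 (0.63), Slc3a2 (0.52), Trib3 (0.46) and Herpud1 (0.34) on the log2 scale. Only the Atf3 and Ppp1r15a calls were kept whichever isolate was left out, and such a fit leaves a single isolate of that sex. Ddit4 differed from the others in that it fell in the female isolates, at -0.67, and was at -0.05 in the male isolates. Of the 13 chaperones 0 passed by edgeR at the adjusted threshold, against 6.05% of all genes. An unadjusted p under 0.05 was found for 4 of them, against 3275 of all 15624 genes. With 13 genes, neither count is far from the share over all genes.

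In Cre_TGFB against Cre, 3 of the 37 genes passed the same test, again all higher in the male isolates, against 4.34% of all genes. Atf3 had 2.40 in the male and 0.78 in the female isolates, a difference of 1.63 ± 0.20 (SE, adjusted p = 0.000899) by edgeR. Ppp1r15a had 1.41 in the male and 0.54 in the female isolates, a difference of 0.87 ± 0.15 (SE, adjusted p = 0.00578). Ddit4 had -0.18 in the male and -0.64 in the female isolates, a difference of 0.45 ± 0.11 (SE, adjusted p = 0.0265). Each of these 3 calls was lost without isolate 2, a fit with a single female isolate. Atf4 came next and did not pass in this edgeR fit, at 0.36 ± 0.10 (SE, adjusted p = 0.052), nor with RLE size factors (adjusted p = 0.0593). It passed with DESeq2 (adjusted p = 0.0228), with limma-voom (adjusted p = 0.0468) and without the filter on low counts (adjusted p = 0.0453). In the fits that left out 1 isolate the Atf4 difference was 0.33 to 0.41 and did not pass. With 2 isolates of each sex, sex and isolate cannot be told apart, and leaving out 1 isolate moved the count to between 2 and 12 genes in GFP_TGFB against GFP and between 0 and 3 genes in Cre_TGFB against Cre.

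**Figure D5:**
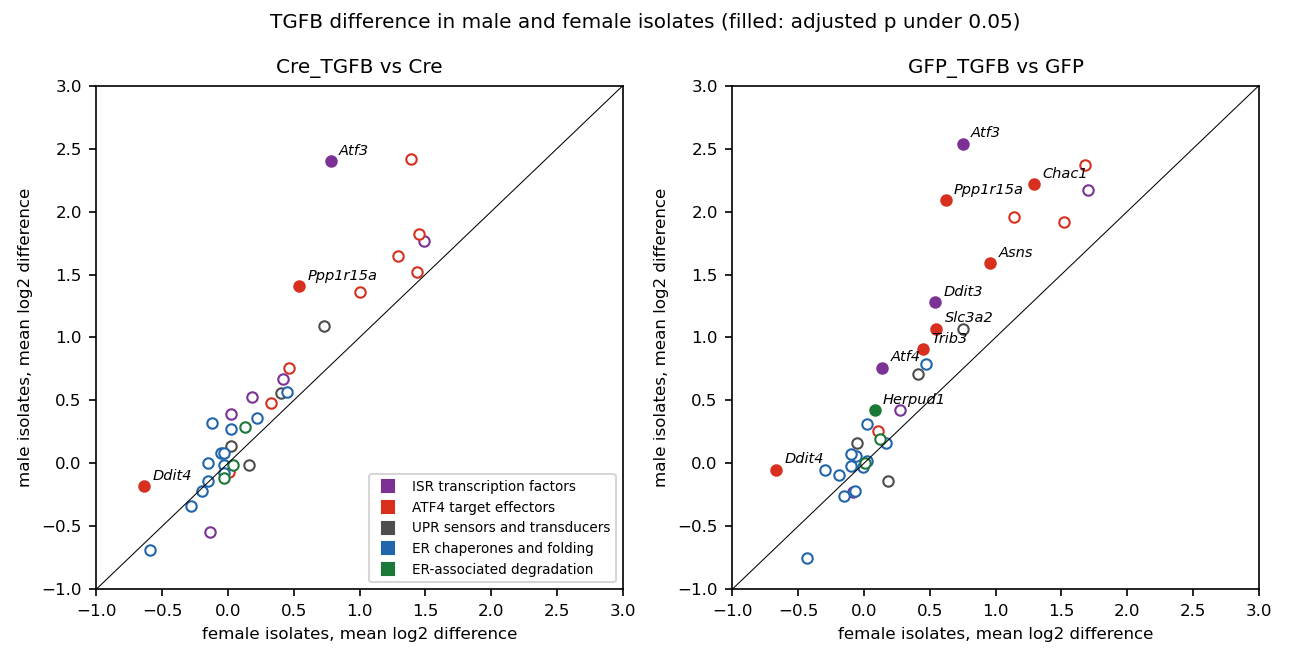
Mean paired TGFB difference in the 2 male isolates (vertical axis, log2 CPM) against that in the 2 female isolates (horizontal axis) for Cre_TGFB against Cre (left) and GFP_TGFB against GFP (right), coloured by role and filled where the male minus female difference passed. Genes above the diagonal have the larger difference in male isolates, and Fgf21, at 6.47 in male and 5.36 in female isolates on the left and 7.00 in male and 5.76 in female isolates on the right, lies beyond the axes.

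Further genes of the same pathways were counted from lists of known members. Of all genes tested in GFP_TGFB against GFP, 29.8% were higher and 32.1% lower. In that comparison, a list of ATF4-dependent tRNA synthetases with the tRNA exporter Xpot had 13 of 13 genes higher, with a median log2 fold change of 1.07. Sars, the seryl-tRNA synthetase, had 487 ± 85.2 CPM in GFP_TGFB and 222 ± 4.78 CPM in GFP libraries (log2 fold change 1.12), and Aars, the alanyl-tRNA synthetase, had 618 ± 97.9 CPM in GFP_TGFB and 333 ± 13 CPM in GFP libraries (0.88). Of 16 ATF4-dependent amino acid genes 13 were higher and 2 lower, with a median of 1.41. Slc6a9, a glycine transporter, had 117 ± 42.2 CPM in GFP_TGFB and 42.9 ± 9.52 CPM in GFP libraries (1.41), and Pycr1, the last enzyme of proline synthesis, had 95.3 ± 16.4 CPM in GFP_TGFB and 41.6 ± 1.82 CPM in GFP libraries (1.18). The 2 that fell were the glutamine transporter Slc1a5 (-0.51) and the transsulfuration enzyme Cbs (-1.48). The 7 ATF4-dependent regulators were split, with 3 higher, among them the angiogenic factor Vegfa (1.31) and the translation repressor Eif4ebp1 (0.92), and 2 lower, Cebpb (-0.83) and Vldlr (-0.29).

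Of 12 genes for eIF2, its exchange factor eIF2B, the eIF2 kinases other than PERK and their regulators, 10 were higher and 2 lower, with a median of 0.48. Among all genes, 29.8% were higher and 32.1% lower in the same comparison. Of the eIF2B subunit genes, Eif2b3 had 36.8 ± 2.76 CPM in GFP_TGFB and 19.5 ± 2.27 CPM in GFP libraries (0.92), and Eif2b2 had 92.1 ± 7.49 CPM in GFP_TGFB and 53.2 ± 7.67 CPM in GFP libraries (0.80). Both genes that fell were kinase genes: Eif2ak2, which encodes the double-stranded RNA sensor PKR (-0.65), and Eif2ak1, which encodes the heme-regulated kinase (-0.12). Of 24 further genes for folding and translocation, 9 were higher and 5 lower with a median of 0.17, and of 12 tested for ER-associated degradation 5 were higher and 2 lower with a median of 0.10, beside 29.8% higher and 32.1% lower of all genes. The disulfide isomerase Pdia5 (0.69) and the translocon subunit Sec61a1 (0.43) rose, and the prolyl isomerase Fkbp2 (-0.42) and the ER oxidase Ero1lb (-0.61) fell. In degradation, the segregase Vcp (0.31) rose, and the lectins Os9 (-0.41) and Erlec1 (-0.47) fell. Of 6 other UPR transcription factors and proteases 4 were higher and 1 lower. Creb3l2, a membrane-bound factor of secretory cells, had 572 ± 13.9 CPM in GFP_TGFB and 219 ± 37 CPM in GFP libraries (1.40), its relative Creb3 rose (0.74), and the protease gene Mbtps1, whose product cleaves ATF6, fell (-0.28).

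Other stress programmes differed from list to list in GFP_TGFB against GFP. Mitochondrial proteases and chaperones were higher in 6 of 7 with a median of 0.87, among them Hspd1 (1.40) and Hspa9 (0.89). Cytosolic heat shock genes were higher in 5 and lower in 3 of 12, with Hspb1 (0.72) and Hsp90ab1 (0.39) up and Hspa1b (-0.95) and Hspa1a (-0.59) down. NRF2 targets were higher in 3 and lower in 4 of 10, with Hmox1 (1.00) and Txnrd1 (1.30) up and G6pdx (-0.58) and Gsr (-0.47) down. Of 10 p53 targets 7 were higher and 2 lower, with Mdm2 (0.99) and Cdkn1a (0.58) up and Sesn1 (-1.04) and Trp53inp1 (-0.72) down. These counts stand beside the 61.9% of all genes that passed, 29.8% higher and 32.1% lower, so single calls are common in this comparison. In Cre_TGFB against Cre, 13 of 13 genes of the tRNA synthetase list, 12 of 16 amino acid genes and 9 of 12 eIF2 genes were higher, with medians of 0.91, 1.2 and 0.55. Of all genes, 31% were higher in that comparison.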

How the data were processed

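Per the labels' protocols, RNA isolated with Trizol went through a DNase step before library construction with the NEBNext Ultra II RNA kit. The authors deposited unnormalised counts per Ensembl gene, obtained with HTSeq 0.10.0 on build GRCm39 after FastQC 0.10.1, per the submitters' processing notes. For the aligner, annotation release and strand setting nothing is given in the sources used here, so reads of antisense or overlapping genes may be shared (Ddit3 with Mars, Atf5 with Nup62, Syvn1 with Mrpl49, Manf with Rbm15b and Dcaf1). All 20 columns matched a labelled sample. Symbols came from a GENCODE annotation of GRCm38, used for names only, and 52081 of 55414 identifiers had one. The others held 0.215% to 0.568% of a library's counts.

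Genes were filtered with filterByExpr (a count of 10 or its equivalent in 4 libraries and 15 in all), scaled with TMM factors (0.944 to 1.06) and tested with the robust quasi-likelihood F test of edgeR 4.0.16 in R 4.3.3, with a mean per group and the replicate number as a block in 1 fit over all 20 libraries. A gene was called at an adjusted p under 0.05 (Benjamini-Hochberg over 15624 genes). The SE is the absolute log2 fold change over the square root of F. Log2 CPM values per isolate use a prior count of 2. The sex difference came from a fit with group by sex terms and the same block. The fits were tested on simulated data. In CPM, 3 counts equal 0.0286 to 0.0777 by library total, which covers counting error only. The pairing follows from the shared library codes. Deviations from the group mean correlated across genes with r from 0.11 to 0.71 (median 0.41) in 40 pairs of libraries with the same number from different groups. The other 120 pairs of libraries from different groups had r from -0.61 to 0.44 (median -0.25). Taking deviations from the group mean by itself pulls the r of different numbers below 0. No replicates were alike within sampling noise (chi-square per degree of freedom at least 8.41 in 30 pairs).

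The genes, the further lists and the tests were chosen with earlier results of these data known. Values per library are given for genes called with at least a 2-fold change in GFP_TGFB against GFP and for Atf4, Ddit3, Xbp1, Hspa5, Ern1, Eif2ak3 and Atf6, and for others where a comparison turned on them. Of each further list at most 2 called genes per direction, with the smallest p, are named. The named result of 1 list gene is not reported here. Lists are described by counts and medians, without a test. Alternatives were a fit without the block, DESeq2 1.42.0 and its RLE size factors, limma-voom (limma 3.58.1), no filter on low counts, another prior count, and leaving out each replicate.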

Additional observations from a re-analysis of the deposited data

Results flagged for a closer look

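In a group of 4 libraries, 1 value stood apart from the other 3 in 10 of the 185 group values tested, and chance alone flags about 1 in 20. Those low were Ddit3 in Hyal2 replicate 2 (34.1 CPM, the others 46.6 to 48.7), Cebpg in Hyal2 replicate 1 (42.1 CPM, the others 45.7 to 46.0), Eif2ak3 in GFP replicate 2 (51.7 CPM, the others 54.6 to 54.9), Atf6 in Cre replicate 2 (49.2 CPM, the others 56.4 to 57.3) and Dnajb9 in GFP_TGFB replicate 1 (23.6 CPM, the others 30.1 to 31.3). Those high were Sesn2 in GFP replicate 3 (98.2 CPM, the others 83.7 to 85.0), Xbp1 in Cre_TGFB replicate 3 (158 CPM, the others at 152), Canx in GFP replicate 4 (729 CPM, the others 633 to 645), Pdia6 in GFP replicate 1 (539 CPM, the others 531 to 532) and Dnajb9 in Hyal2 replicate 2 (34.4 CPM, the others 25.6 to 26.4).

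The TGFB effect differed between male and female isolates in an interaction test. In GFP_TGFB against GFP the male minus female difference on the log2 scale was 1.80 for Atf3, 1.49 for Ppp1r15a, 0.95 for Chac1, 0.75 for Ddit3, 0.63 for Asns, 0.63 for Ddit4, 0.62 for Atf4, 0.52 for Slc3a2, 0.46 for Trib3 and 0.34 for Herpud1. In Cre_TGFB against Cre it was 1.63 for Atf3, 0.87 for Ppp1r15a and 0.45 for Ddit4. For each of these 13 values both male isolates were above both female isolates, which adds no separate support, since the values were picked by this test. With 2 isolates of each sex, sex and isolate cannot be told apart.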

How the results depend on the processing

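The calls in both TGFB comparisons were largely kept. The number called in GFP_TGFB against GFP was 20 to 26 of 37 with a replicate or library left out, and 22 to 26 in Cre_TGFB against Cre. In the comparisons between groups, limma-voom and RLE size factors changed no call of a named gene, and DESeq2 changed 1, calling 1 of the 37 genes (Syvn1) in Cre against GFP. The male minus female difference of Atf4 in Cre_TGFB against Cre, which did not pass in edgeR, passed with DESeq2, with limma-voom and without the filter on low counts. It did not pass with RLE size factors or with an isolate left out. That of Herpud1 in GFP_TGFB against GFP did not pass without the filter (adjusted p = 0.117). The fit with no replicate block ended 8 calls: Sesn2, Canx, Creld2, Herpud1 and Syvn1 in GFP_TGFB against GFP and Atf5, Trib3 and Herpud1 in Cre_TGFB against Cre, so that the degradation genes had 0 calls in each, and their counts ranged from 0 to 2 and from 0 to 1 with a replicate left out. Without the filter on low counts Sesn2, Canx and Syvn1 did not pass, which left 1 degradation gene in GFP_TGFB against GFP. The chaperone calls there ranged from 3 to 6 with a replicate left out. Leaving out 1 isolate from all groups ended calls in both TGFB comparisons. In GFP_TGFB against GFP these were Sesn2, Ddit4, Canx, Pdia6, Dnajc3, Creld2, Herpud1 and Syvn1 (adjusted p between 0.0542 and 0.148). In Cre_TGFB against Cre they were Atf5, Calr and Herpud1 (adjusted p between 0.0591 and 0.0925). The block changed no other call of the genes named. Eif2ak3 in GFP_TGFB against GFP ranged from -0.06 to 0.09 over the fits that left out a replicate or library, was below 0 in 5 of them and did not pass in any.

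The mean contrast of effectors and chaperones fell to 0.75 and 0.53 with the median over genes, and to 1.13 and 0.95 without Fgf21, an alternative chosen after seeing the data. The male minus female count in Cre_TGFB against Cre, and the leave-one-out runs of that test, were also added after seeing the data. That count was 6 without the filter on low counts and 0 to 3 with an isolate left out, and the count in GFP_TGFB against GFP was 2 to 12. The cause of these changes was not tested. Depth limits Fgf21 and Atf3 most among the 37 genes, with 5 to 33 reads of Fgf21 in the libraries without TGFB.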
